A study of Mus musculus with 18 samples.

Results

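The inflammasome and neutrophil alarmin genes described here are 10 genes taken by their symbols: Nlrp3, Pycard, Casp1, Casp4, Gsdmd, Aim2, Nlrc4, S100a8, S100a9 and Acod1. They are 10 of the 30072 genes in the count and abundance tables. RNA of the heart, labelled as intraventricular septum, was sequenced from 18 CD-1 mice, an outbred stock. Groups of 6 mice were compared: controls that received no radiation (ctrl), mice at 2 weeks after 25 Gy to the heart (2wk), and mice at 6 weeks after the same dose (6wk). According to the methods, controls went through the same anesthesia and imaging, all mice were adults of at least 8 weeks, and both sexes were used, while the sex of each mouse was not given in the labels. The comparisons ask which of these genes differed in abundance at 2 weeks and at 6 weeks post-IR, and which differed between those times. The labels give no time for the control group. Time post-IR can therefore not be told apart from age or date of harvest.

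Inflammasomes are cytosolic complexes in which a sensor protein recruits, directly or through the adaptor ASC, the protease caspase-1. Nlrp3 encodes a sensor of membrane and ionic disturbance, Aim2 a sensor of cytosolic DNA, and Nlrc4 a sensor that works with NAIP proteins bound to bacterial flagellin or secretion system proteins. Pycard encodes ASC. Caspase-1 (Casp1) cleaves pro-interleukin-1β, pro-interleukin-18 and gasdermin D, and caspase-11, which mouse Casp4 encodes, binds lipopolysaccharide in the cytosol and also cleaves gasdermin D. The released fragment of gasdermin D (Gsdmd) forms pores in the plasma membrane. S100a8 and S100a9 encode the 2 subunits of calprotectin, which are among the most abundant cytosolic proteins of neutrophils and act as alarmins once released. Acod1 encodes the enzyme that makes itaconate from cis-aconitate in activated macrophages. Most of these proteins are controlled by assembly and cleavage, which RNA abundance does not show.

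Casp1 (9:5298517-5307265) and Casp4 (9:5308828-5336783) lie next to each other on the plus strand of chromosome 9 (GRCm38). The windows of 250 bases before their RefSeq starts (GRCm38.p6, plus strand) are shown because these adjacent caspase genes are both described below and, of the pair, only the Casp4 window held a match to any of the 4 motifs searched. Capitals mark a match to the NF-kB motif, 92 bases upstream of the start, and the gene start in GENCODE lies inside the Casp4 window.
Casp4, chr9:5308599-5308848: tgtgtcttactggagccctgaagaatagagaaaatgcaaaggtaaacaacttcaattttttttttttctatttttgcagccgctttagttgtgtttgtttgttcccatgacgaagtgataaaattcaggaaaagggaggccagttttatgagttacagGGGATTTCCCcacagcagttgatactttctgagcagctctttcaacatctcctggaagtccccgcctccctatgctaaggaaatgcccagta
Casp1, chr9:5298267-5298516: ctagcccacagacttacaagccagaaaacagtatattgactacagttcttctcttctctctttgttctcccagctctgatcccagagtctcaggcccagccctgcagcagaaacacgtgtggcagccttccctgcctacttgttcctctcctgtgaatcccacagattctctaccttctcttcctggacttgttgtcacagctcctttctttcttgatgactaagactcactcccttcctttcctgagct
The NF-kB motif, as searched, occurred on either strand in 3.44% of all 32851 promoter windows of this length. The other motifs were the ISRE core, a repeat of GAAA with 2 free bases between (2.98% of windows), the GAS letters TTCNNNGAA (7.02%) and the C/EBP letters TTGCNNAA (9.56%). Of the 11 windows of 9 members, none held the ISRE or GAS letters, and the C/EBP letters were present in those of S100a9 (236 bases upstream), Pycard (142) and Nlrc4 (36). Gsdmd had no entry in the promoter table. A match of letters is a description of the window and not a measured binding site.

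Each library held 11522987 to 15501019 estimated counts assigned to genes, so 3 counts corresponded to between 0.194 and 0.26 CPM, the unit of counts scaled to library size, or 0.179 to 0.278 CPM after TMM normalization. Levels are given as CPM after this normalization, which centers on the bulk of genes, and differences as log2 fold changes from edgeR's quasi-likelihood test, with P values adjusted by Benjamini-Hochberg over the 15054 genes tested. A gene was tested where at least 6 mice reached 0.23 CPM, and 9 of the 10 members were, S100a8 being too low. Control mouse 4 stood apart from the other controls in its leukocyte marker sums and also held the lowest cardiomyocyte marker sum among controls. These sums are given with the marker lists below, and their differences from controls are given with and without it.

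At 6 weeks post-IR, Nlrp3, Casp1, Casp4, Gsdmd, Aim2 and Acod1 were higher than in controls, while Pycard, Nlrc4 and S100a9 did not pass the test. This was 6 of 9 members higher and 0 lower at an adjusted P under 0.05, beside 13.5% of all genes tested higher, 11.5% lower and 25% in either direction. Members and the lists below were chosen with earlier results of these data known. Such counts are therefore descriptions and no unbiased measure of an excess over all genes. At 2 weeks, 1 of 9 (Acod1) was higher and 0 were lower, beside 3.09% of all genes higher, 1.93% lower and 5.02% in either direction. Between the irradiated groups, Nlrp3, Casp4 and Aim2 were higher at 6 weeks than at 2 weeks, which was 3 of 9 higher and 0 lower, beside 3.31% of all genes higher, 2.01% lower and 5.33% in either direction. Acod1 passed the filter in 7 mice, all irradiated, so a difference was built into its being tested. Without it the counts were 0 of 8 higher at 2 weeks, 5 of 8 at 6 weeks and 3 of 8 between the times. For the 8 genes, edgeR gave 2 at an unadjusted P under 0.05 at 2 weeks (Nlrp3 and Pycard, both higher), and DESeq2 called 1 (Nlrp3) after adjustment. The share of all genes at an unadjusted P under 0.05 is not given, here or for the lists below. Whether such unadjusted counts exceed it can therefore not be told. The median log2 fold change of the 9 genes was 0.22 at 2 weeks, 0.85 at 6 weeks and 0.67 between the times, beside -0.00153, -0.019 and -0.000754 for all genes tested. The 2-week and 6-week comparisons share the same controls and are not independent of each other.

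A log2 fold change above 1 was also reached by 1 of 9 members at 2 weeks (Acod1; 0.903% of all genes passed both limits), by 3 at 6 weeks (Acod1, Nlrp3 and Casp4; 5.95%) and by 1 between the times (Aim2; 1.14%). The 6 values of each group did not overlap with controls at 2 weeks for Acod1 alone (3.24% of all genes), and at 6 weeks for Nlrp3, Casp1, Casp4 and Acod1 (9.23%). Between 2 and 6 weeks only Casp4 did not overlap (3.54%). In this bulk tissue, more or fewer cells of a type and more or less RNA per cell cannot be told apart.

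**Figure D1:**
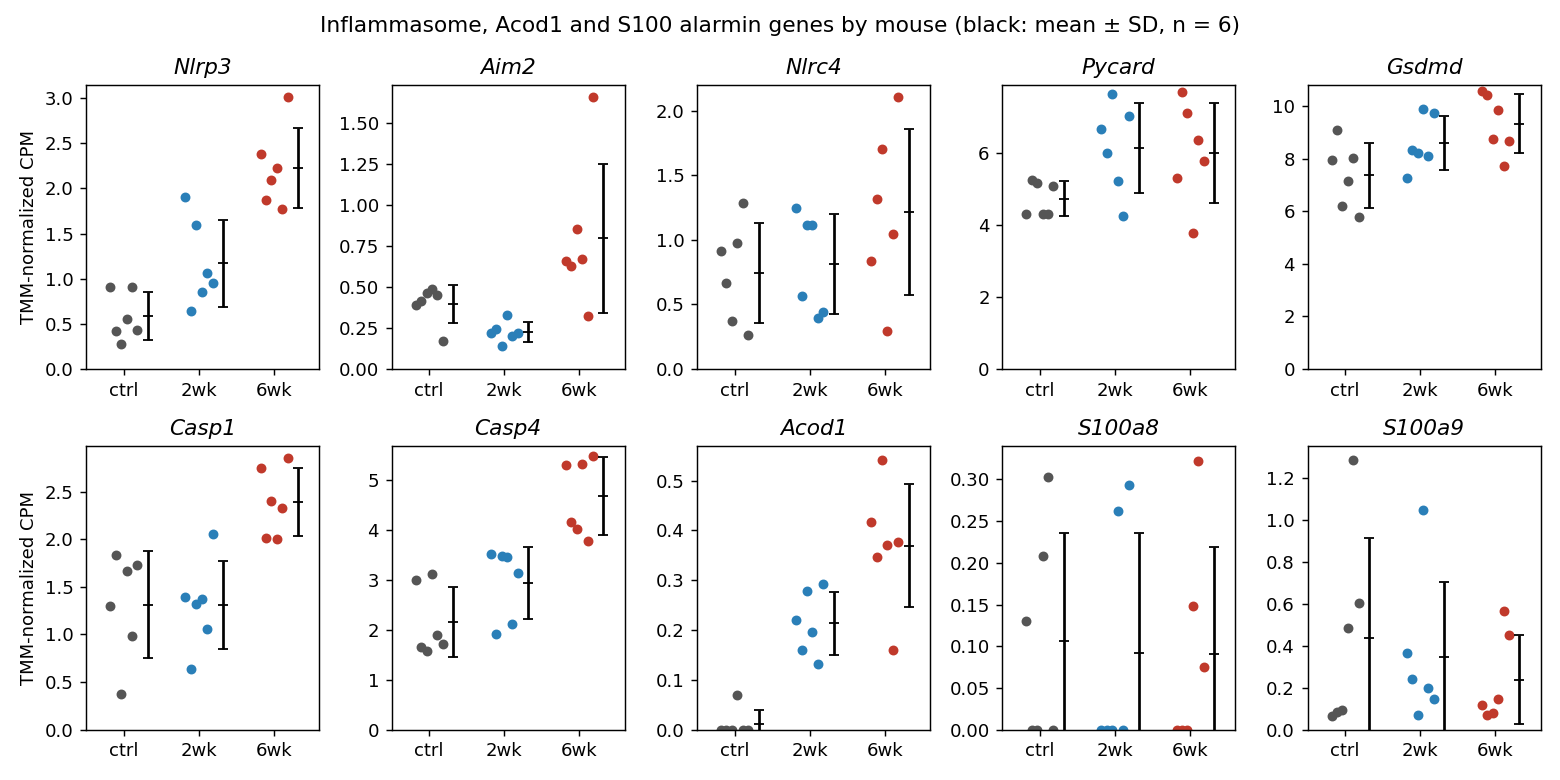
TMM-normalized CPM (linear axes from 0) of the 10 genes in each mouse, grouped as controls, 2 weeks and 6 weeks post-IR; each point is 1 mouse and the black bar is the mean ± SD of 6 mice. All 6 mice at 6 weeks lie above all controls for Nlrp3, Casp1, Casp4 and Acod1, whereas S100a8 and S100a9 spread over the same low range in each group.

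Of the sensor genes Nlrp3, Aim2 and Nlrc4, Nlrp3 (11:59541568-59566956) had the largest fitted difference between control and 6-week mice. Controls ranged from 0.278 to 0.911 CPM with a median of 0.493. At 2 weeks the lowest, median and highest values were 0.642, 1.01 and 1.91 CPM. At 6 weeks they were 1.77, 2.16 and 3.01 CPM. The lowest 6-week mouse was thus above every control, and the 2-week mice lay between, with 4 mice above the highest control and the highest above the lowest 6-week mouse. The log2 fold change was 1.87 ± 0.28 (SE) at 6 weeks (adjusted P = 0.000112, edgeR), a 3.65-fold difference with a 95% interval of 2.49 to 5.35. At 2 weeks it measured 0.94 ± 0.31 (adjusted P = 0.0886), which missed the threshold although all 6 mice were above the control median. Over 12 alternative fits the 2-week value ran from 0.0741 to 1.09, with adjusted P up to 0.657, and was called in 2. In TPM (transcripts scaled to the same total in each mouse) the medians were 0.326 in controls and 0.339 at 2 weeks. The difference between the times was 0.92 ± 0.24 (adjusted P = 0.0347). This last call was lost without any one of 7 mice (2wk 2, 4, 5 and 6, and 6wk 1, 3 and 6), with adjusted P up to 0.084, and the 6-week call held without any single mouse.

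Aim2 (1:173350879-173466040) had a fitted value below controls at 2 weeks and above them at 6 weeks. Its values were 0.173, 0.435 and 0.486 CPM (lowest, median, highest) in controls. They were 0.139, 0.22 and 0.327 CPM at 2 weeks. They were 0.322, 0.662 and 1.66 CPM at 6 weeks. All controls but the lowest lay above the highest 2-week mouse, that lowest control lay inside the 2-week range, and 1 mouse at 6 weeks lay inside the control range. In the fit Aim2 differed on the log2 scale by -0.81 ± 0.42 at 2 weeks (adjusted P = 0.291), 0.97 ± 0.32 at 6 weeks (adjusted P = 0.0336) and 1.78 ± 0.36 between the times (adjusted P = 0.0104). The difference between the times was called without any single mouse left out, from 1.45 to 1.92. The 6-week call against controls was lost without ctrl 1 (adjusted P = 0.0537), ctrl 6 (0.0761), 6wk 3 (0.0558) or 6wk 6, the highest mouse, without which the value was 0.64 (adjusted P = 0.097). It was also lost with DESeq2 (adjusted P = 0.0766), limma with quality weights (0.0684), no filter (0.0636) and the replicate block (0.0551), and was kept in 8 of 12 alternative fits. Aim2 held 31, 19 and 66 counts in all in the control, 2-week and 6-week groups. The gene model overlaps 16817 bases of Cadm3 on the opposite strand, and Cadm3 itself had log2 fold changes of 0.55 (adjusted P = 0.15) at 2 weeks and 0.06 (adjusted P = 0.886) at 6 weeks.

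Nlrc4 (17:74425438-74459142) varied widely within each group. Controls held 0.259, 0.789 and 1.29 CPM (lowest, median, highest). The 2-week mice held 0.398, 0.837 and 1.25 CPM. The 6-week mice held 0.297, 1.18 and 2.11 CPM. The ranges overlapped in every comparison, and the log2 fold change was 0.08 ± 0.44 at 2 weeks (adjusted P = 0.941) and 0.64 ± 0.41 at 6 weeks (adjusted P = 0.277). The 95% interval at 6 weeks ran from -0.16 to 1.43 on the log2 scale, so a change as large as that of Casp4 lies within it.

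The adaptor gene Pycard (7:127989708-127993867) was among the most abundant members and did not pass the test at either time. Its lowest, median and highest values were 4.30, 4.70 and 5.25 CPM in controls. They were 4.24, 6.35 and 7.65 CPM at 2 weeks. They were 3.78, 6.07 and 7.70 CPM at 6 weeks. In each irradiated group 5 of 6 mice were above the control median. In the fit Pycard differed on the log2 scale by 0.38 ± 0.17 at 2 weeks (adjusted P = 0.201) and 0.35 ± 0.17 at 6 weeks (adjusted P = 0.137). It passed at 6 weeks without 6wk 4 (0.45, adjusted P = 0.0339), and it passed at both times under scaling by library size alone and on TPM, which also moved the median of all genes. An antisense gene, Gm45205, overlaps 599 bases of Pycard, and 12.7% of the 31-base words of Pycard transcripts also occur in other genes, so that some reads could be divided between them.

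Both caspase genes were higher at 6 weeks than in controls, and neither passed the test at 2 weeks. Casp1 held 0.37, 1.48 and 1.83 CPM (lowest, median, highest) in controls. It held 0.642, 1.35 and 2.05 CPM at 2 weeks. It held 2.00, 2.37 and 2.86 CPM at 6 weeks. Controls and 2-week mice covered much the same range, and every 6-week mouse was above every control. The log2 fold change was -0.02 ± 0.28 at 2 weeks (adjusted P = 0.985) and 0.85 ± 0.25 at 6 weeks (adjusted P = 0.0194), a 1.80-fold difference with a 95% interval of 1.28 to 2.54. Between the times it was 0.86 ± 0.25, which narrowly missed the threshold (adjusted P = 0.0503) and passed it without ctrl 3 (0.0257), ctrl 4 (0.0469), ctrl 6 (0.0489), 2wk 6 (0.04) or 6wk 4 (0.0439).

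Casp4 held 1.57, 1.81 and 3.12 CPM (lowest, median, highest) in controls. It held 1.93, 3.31 and 3.52 CPM at 2 weeks. It held 3.78, 4.74 and 5.49 CPM at 6 weeks. All 6-week mice were above all mice of both other groups, and 4 of the 6 mice at 2 weeks were above the highest control. The log2 fold change was 0.42 ± 0.21 at 2 weeks (adjusted P = 0.28), 1.09 ± 0.20 at 6 weeks (adjusted P = 0.000652) and 0.67 ± 0.19 between the times (adjusted P = 0.0468). The 6-week difference was 2.12-fold, with a 95% interval of 1.62 to 2.79, and was called without any single mouse. The call between the times was lost without any one of 12 mice (ctrl 5, each 2-week mouse, and 6wk 1, 2, 3, 4 and 6), with adjusted P up to 0.105.

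Gsdmd (15:75862327-75867408), the pore-forming substrate of both caspases, differed by the least of the genes called. Its lowest, median and highest values were 5.78, 7.54 and 9.08 CPM in controls. They were 7.27, 8.27 and 9.88 CPM at 2 weeks. They were 7.72, 9.31 and 10.6 CPM at 6 weeks. The ranges overlapped in every comparison, although all 6-week mice were above the control median. The log2 fold change was 0.22 ± 0.12 at 2 weeks (adjusted P = 0.315) and 0.34 ± 0.12 at 6 weeks (adjusted P = 0.042), a 1.27-fold difference. This call was lost without ctrl 3, 4 or 6 or 6wk 1, 2, 3 or 4, with adjusted P up to 0.0997 and a value of 0.33 (adjusted P = 0.0645) without ctrl 4.

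**Figure D2:**
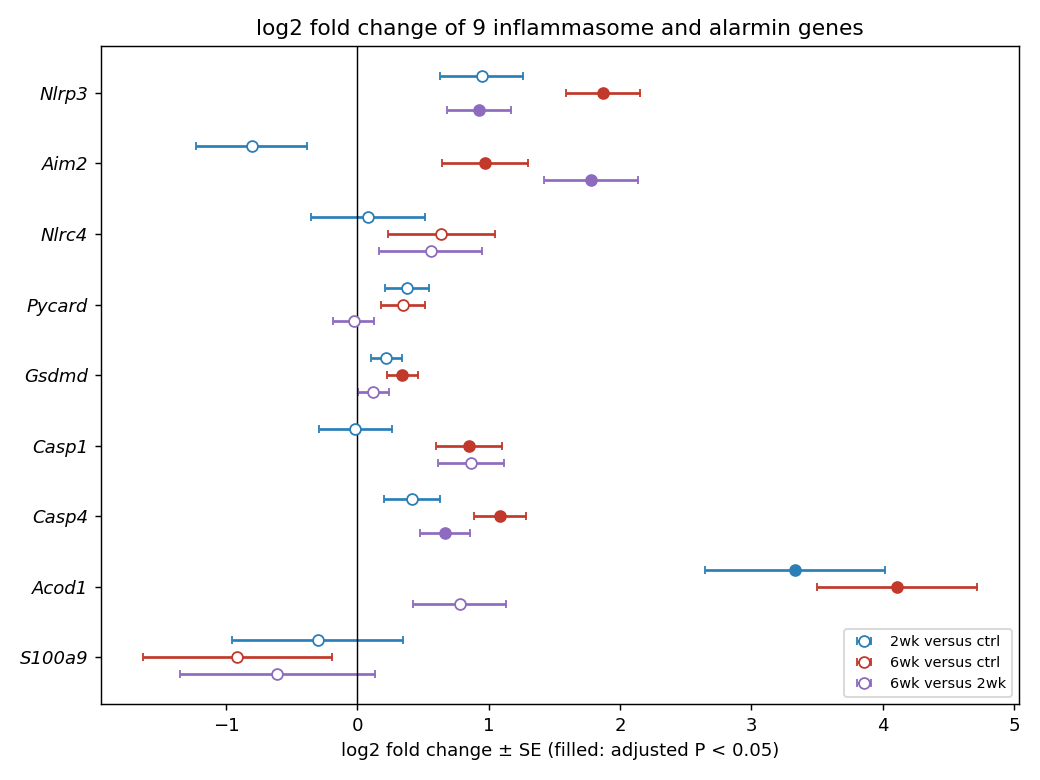
Fitted log2 fold changes (horizontal axis) with their standard errors for the 9 genes tested, in the comparisons of 2wk with ctrl, 6wk with ctrl and 6wk with 2wk; filled points passed an adjusted P of 0.05. Aim2 lies at -0.81 at 2 weeks and 0.97 at 6 weeks, and the fitted values of Acod1 depend on a control group with 1 count in all.

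Acod1 (14:103046977-103056573) was close to the limit of detection. The 6 controls held 1 count in all, in ctrl 4. Each 2-week mouse held 2 to 4 counts, and each 6-week mouse 2 to 7. In CPM the lowest, median and highest values were 0.133, 0.208 and 0.293 at 2 weeks and 0.161, 0.373 and 0.542 at 6 weeks, against 0.0694 in the single control with a count. No irradiated mouse overlapped with any control, while the irradiated groups overlapped with each other. The ratio of summed counts, scaled to CPM, was 16.5 at 2 weeks (exact 95% interval 2.6 to 687) and 28.8 at 6 weeks (4.80 to 1174). Between the times it was 1.75 (0.947 to 3.32), an interval that includes equality. These intervals cover counting error only. In edgeR the gene was called at 2 weeks (adjusted P = 0.0106) and at 6 weeks (adjusted P = 0.000121), and not between the times (0.78 ± 0.35, adjusted P = 0.212). It reached the filter level in 0 controls, 2 mice at 2 weeks and 5 at 6 weeks, so a difference was built into its being tested. The calls held without ctrl 4, but that refit left every control at 0 counts and is no check of them. Its fitted log2 fold changes, 3.33 and 4.11, depend on the prior count that the fit adds to controls.

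No difference between groups was detectable at this depth for the alarmin genes. S100a8 (3:90668978-90670035) held 9, 8 and 7 counts in all over the control, 2-week and 6-week groups, in 3, 2 and 3 mice, and at most 4 in any mouse. The ratio of its summed counts, scaled to CPM, was 0.814 at 2 weeks (95% interval 0.273 to 2.38) and 0.723 at 6 weeks (0.229 to 2.18) against controls. S100a9 (3:90692632-90695721), on the same chromosome and the opposite strand, was detected in every mouse. It held 0.0651, 0.289 and 1.29 CPM (lowest, median, highest) in controls. It held 0.0695, 0.22 and 1.05 CPM at 2 weeks, and 0.0694, 0.134 and 0.563 CPM at 6 weeks. Within each group the highest mouse was many times above the lowest, and the groups covered each other. Fitted log2 fold changes were -0.30 ± 0.65 at 2 weeks (adjusted P = 0.845), -0.91 ± 0.72 at 6 weeks (adjusted P = 0.391) and -0.61 ± 0.74 between the times (adjusted P = 0.691). The 95% interval at 6 weeks ran from -2.33 to 0.50 on the log2 scale, an interval that includes 0.

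S100a8 and S100a9 tended to be high in the same mice. Deviations of log2 CPM from the group means correlated over the 18 mice with r = 0.58 (adjusted P = 0.0324) and rho = 0.55 (adjusted P = 0.034), in a permutation test within groups with 100000 permutations. Without the 2 mice farthest from the median of S100a8 (6wk 5 and 2wk 6), r was 0.66, and within the groups it was 0.59 in controls, 0.43 at 2 weeks and 0.81 at 6 weeks. S100a8 with the summed neutrophil markers gave r = 0.47 (adjusted P = 0.0324) and rho = 0.42 (adjusted P = 0.0963), and r = 0.48 without the same mice. S100a9 with that sum, a relation chosen after the data were seen because S100a8 was so low, gave r = 0.50 (adjusted P = 0.114) and rho = 0.67 (adjusted P = 0.034), with r = 0.48 without ctrl 5 and 2wk 4. Pycard with the macrophage and monocyte sum gave r = -0.26 (adjusted P = 0.128) and rho = -0.31 (adjusted P = 0.207), with r = -0.34 without 6wk 4 and 2wk 5. P values of r were adjusted over the relations other than the added one, and that of the added one over all 4. P values of rho were adjusted over all 4. The relations of S100a8 rest on at most 4 counts in a mouse. By the same deviations, genes most like S100a8 over the 18 mice included Pf4 (r = 0.81), Wbp2 (0.79), Stat3 (0.77) and Mt2 (0.76). Those most like S100a9 were Ugp2 (0.88), Dhx32 (0.88), Ibtk (0.83), Plac9a (0.80) and Vps29 (0.80). Those most like Casp1 were Sh3glb2 (0.84), Gamt (0.81), Akr1b8 (0.79), Prcp (0.78) and Evi2b (0.77). These are among the highest of 15054 values each and are given as descriptions. Among the 36 pairs of the 9 members tested, r ranged from -0.26 to 0.61 with a median of 0.11.

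Levels of different genes were compared per length, as TPM (transcripts scaled to the same total in each mouse). Gsdmd, Pycard and Casp4 were the highest, in this order of medians, in every group: 4.75, 3.85 and 1.67 TPM in controls, 6.01, 5.96 and 4.24 TPM at 2 weeks, and 7.36, 6.41 and 6.23 TPM at 6 weeks. The ranges of neighbors overlapped among these genes in each group. Casp1 came next with median levels of 1.13, 1.25 and 2.32 TPM. Its range overlapped with that of Casp4 in controls and lay entirely below it at 2 weeks and at 6 weeks. Aim2, Nlrp3 and Nlrc4 followed at 6 weeks at medians of 1.65, 1.02 and 0.391 TPM, with S100a9 (0.596 TPM) between the last of them, and S100a8 (0.291 TPM) and Acod1 (0.191 TPM) last. In controls the order after Casp1 was S100a9, Aim2, S100a8, Nlrp3 and Nlrc4, each overlapping with the next, and Acod1 lay below the range of Nlrc4 with a median of 0.

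The rest of the pathway was followed with a list of 24 sensors, regulators, caspases and cytokines, of which 19 were tested. At 6 weeks 9 of the 19 were higher and 0 lower than in controls, and the median log2 fold change was 0.76. Among all genes tested, 13.5% were higher and 11.5% lower, with a median of -0.019. Nlrp1b, at 0 in all controls, reached the filter level in 4 mice at 2 weeks and 4 at 6 weeks, so a difference was built into its being tested. Without it 8 of 18 were higher and 0 lower, with a median of 0.73, and the median of 19 is the same with Nlrp1b at its lower bound. At 2 weeks edgeR called 0 of 19, with 5 at an unadjusted P under 0.05 (3 higher, 2 lower), where DESeq2 called 1 and limma 0. Between the times 3 of 19 were higher and 0 lower, beside 3.31% of all genes tested higher and 2.01% lower.

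Casp8, an apical caspase of death receptor signaling that can also join inflammasomes, held 6.48 to 8.95 CPM in controls, 9.17 to 11.5 CPM at 2 weeks and 10.9 to 17.9 CPM at 6 weeks. Its log2 fold change was 0.97 ± 0.11 at 6 weeks (adjusted P = 1.1e-05) and 0.56 ± 0.11 between the times (adjusted P = 0.00981). Il1b, the substrate cytokine of caspase-1, had medians of 0.569, 0.357 and 2.5 CPM in the control, 2-week and 6-week groups. All 6-week mice (1.28 to 6.19 CPM) were above all 2-week mice (0.321 to 0.513 CPM), while the controls reached 1.67 CPM. Its log2 fold change was 2.31 ± 0.43 at 6 weeks (adjusted P = 0.000688) and 3.02 ± 0.46 between the times (adjusted P = 0.00221). Il1rn, which encodes the interleukin-1 receptor antagonist, had medians of 0.119, 0.22 and 0.662 CPM. Its log2 fold change was 2.33 ± 0.52 at 6 weeks (adjusted P = 0.00171) and 1.65 ± 0.45 between the times (adjusted P = 0.0355), and the latter call was lost without any one of 8 mice (2wk 1 to 5, 6wk 3, 5 and 6; adjusted P up to 0.082). Naip2 and Naip6, partners of Nlrc4, were higher at 6 weeks by 1.16 ± 0.25 (adjusted P = 0.00246) and 1.14 ± 0.29 (adjusted P = 0.00718), although 32.8% and 35% of their 31-base words also occur in other genes, so the share of each is uncertain. The other genes called were Panx1, Casp12, Naip5 and Nlrp1b. Naip5 shares 53.1% of its 31-base words with other genes, and its call was lost without ctrl 1, 2, 3, 5 or 6 or 6wk 1, 3 or 6 (adjusted P up to 0.0824). Nlrp1b held 0 counts in the 6 controls and 32 in 5 of 6 mice at 6 weeks, at least 11.9-fold higher against a floor of 3 counts over the control group. Mouse 6wk 1 held 17 of these counts, and without it the bound was 6.91-fold. Il18, the other cytokine substrate, was below the filter, with at most 3 counts in a control and 2 to 8 in each 6-week mouse.

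**Figure D3:**
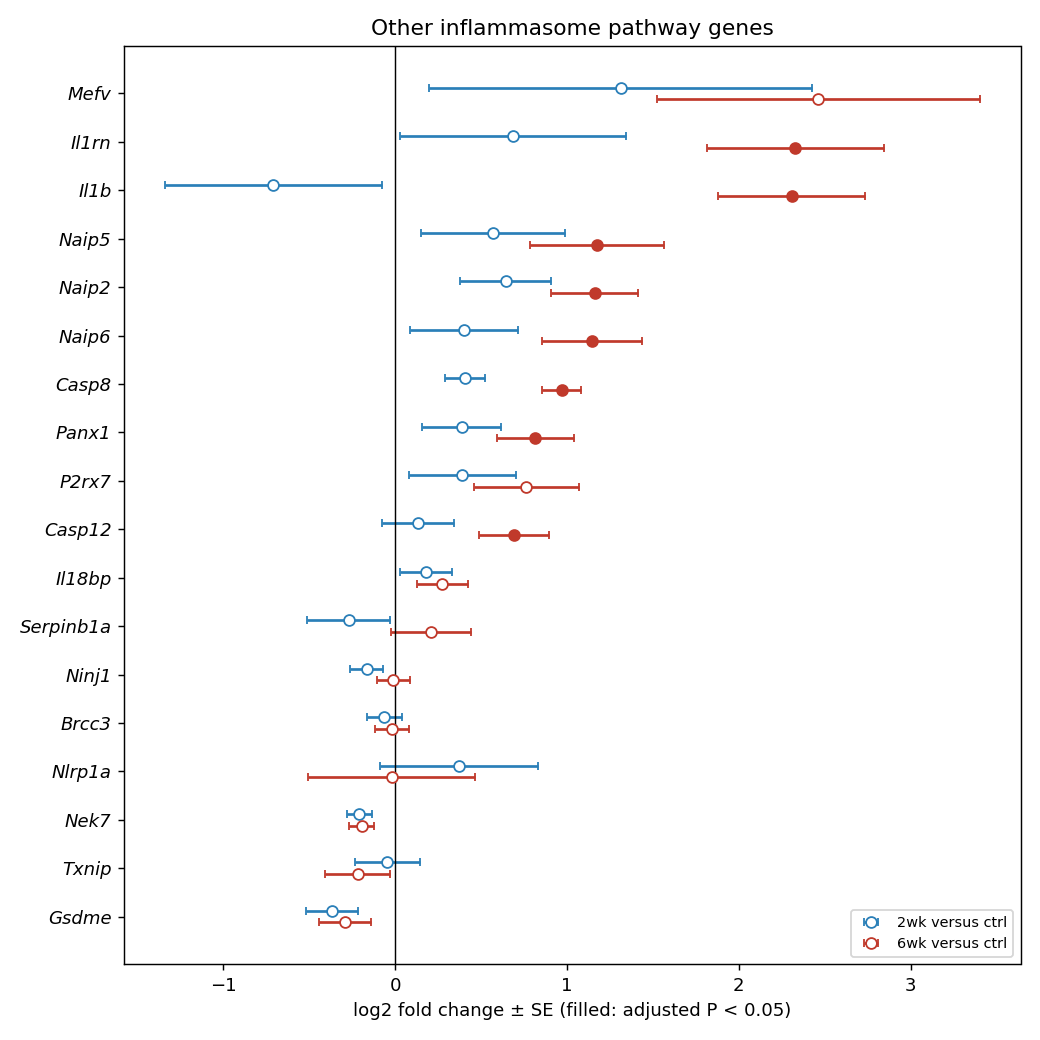
Fitted log2 fold changes with standard errors (horizontal axis) of 18 other inflammasome pathway genes at 2wk and 6wk against ctrl, ordered by the 6-week value; filled points passed an adjusted P of 0.05, and Nlrp1b is left out because it was at 0 in all controls. Il1b lies below 0 at 2 weeks and at 2.31 at 6 weeks, and no 2-week value passed.

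Of 14 other S100 genes, 8 were tested. S100a10, S100a11 and S100a6 were higher at 6 weeks, with 0 lower, beside 13.5% of all genes tested higher and 11.5% lower. None of these S100 genes encodes a calprotectin subunit: S100a10 encodes the partner of annexin A2. S100a10 had medians of 8.56, 23.8 and 21.8 CPM in the control, 2-week and 6-week groups, and its log2 fold change was 1.27 ± 0.25 at 2 weeks (adjusted P = 0.00805) and 1.45 ± 0.25 at 6 weeks (adjusted P = 0.000401). S100a11 had medians of 33.3, 51.3 and 74.2 CPM, with 1.04 ± 0.16 at 6 weeks (adjusted P = 0.000152). At 2 weeks it was 0.57 ± 0.16 (adjusted P = 0.0491), a call that was lost without any one of 14 mice, with adjusted P up to 0.108. S100a6 was higher at 6 weeks by 0.69 ± 0.16 (adjusted P = 0.00304). The median log2 fold change of the 8 was 0.10 at 2 weeks and 0.44 at 6 weeks. S100pbp, which encodes a binding protein and no S100 protein, stood in the list at first and was left out after its values were seen (0.03 at 6 weeks). Between the times edgeR called 0 of 8, with 2 at an unadjusted P under 0.05, where DESeq2 called 1 and limma 0.

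Of 6 genes for receptors that bind S100 alarmins or take part in their signaling, 2 were higher and 2 lower at 6 weeks. Among all genes tested, 13.5% were higher and 11.5% lower. The median log2 fold change of the 6 was -0.0447, beside -0.019 for all genes. Cd14, the co-receptor of TLR4, had medians of 3.80, 4.58 and 8.17 CPM in the control, 2-week and 6-week groups. Its log2 fold change was 1.0 ± 0.19 at 6 weeks (adjusted P = 0.000724) and 0.85 ± 0.18 between the times (adjusted P = 0.0163). Tlr4 was higher at 6 weeks by 0.41 ± 0.12 (adjusted P = 0.0151). Cd36, a fatty acid translocase, was lower by -0.47 ± 0.10 at 2 weeks (adjusted P = 0.0134) and by -0.37 ± 0.10 at 6 weeks (adjusted P = 0.0113), and Bsg (basigin) was lower at 6 weeks by -0.28 ± 0.09 (adjusted P = 0.0248). On log2(TPM + 1) the 2-week value of Cd36 was -0.17 and was not called (limma, adjusted P = 0.189). The 6-week values of Cd36 and Bsg lay at 0.0651 and 0.0986 on log2(TPM + 1), where the median of all genes was 0.29. Bsg was not called without ctrl 3, 5 or 6 or 6wk 2 or 6, with adjusted P up to 0.0742.

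Genes that handle itaconate or its targets were followed in a list of 9, of which 8 were tested. At 6 weeks, 0 were higher and 2 lower: Sdha, the succinate dehydrogenase subunit that itaconate inhibits, by -0.37 ± 0.10 (adjusted P = 0.0126), and Clybl, which clears citramalyl-CoA formed from itaconate, by -0.39 ± 0.11 (adjusted P = 0.0147). Among all genes tested, 11.5% were lower and 25% were called in either direction, so 2 of 8 called is near the share of all genes. The median log2 fold change of the 8 was -0.19. On log2(TPM + 1) Sdha and Clybl lay at 0.0169 and 0.00989 against the same median of 0.29. At 2 weeks and between the times edgeR, DESeq2 and limma each called 0 of 8, with 2 at an unadjusted P under 0.05 in each comparison.

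Summed markers of cells that express these genes were compared between the groups. The summed level of 14 macrophage and monocyte markers was 161, 241 and 483 CPM (lowest, median, highest) in controls. It was 298, 340 and 393 CPM at 2 weeks. It was 435, 483 and 576 CPM at 6 weeks. The highest control value is that of ctrl 4, and the other controls reached 252 CPM at most. The log2 difference was 0.99 at 6 weeks (adjusted P = 0.0216), 0.52 between the times (adjusted P = 0.0162) and 0.47 at 2 weeks (adjusted P = 0.112), by an exact permutation test of 6 against 6 mice adjusted over 15 tests, whose smallest possible P was 0.00216. Without ctrl 4 the differences from controls were 1.18 at 6 weeks and 0.67 at 2 weeks, each with the smallest exact P of 0.00216 before adjustment. Mouse ctrl 4 was singled out by this same sum, so these P values are descriptions. Of 12 refits without 1 mouse, only this one gave an exact P under 0.05 at 2 weeks, with P up to 0.134. At 6 weeks 12 of 12 did. Of the 14 markers 12 were higher at 6 weeks and Cd163 was lower, beside 13.5% of all genes tested higher and 11.5% lower. The log2 changes of the members called at 6 weeks, 0.34 to 1.87 apart from Acod1, thus stood beside a summed marker level 0.99 higher, and the part of cell number in them was not tested.

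The neutrophil list of 22 genes gave sums of 2.41, 6.37 and 24.3 CPM (lowest, median, highest) in controls, the last again in ctrl 4, with the other controls at or below 9.07 CPM. It gave 5.05, 6.83 and 9.28 CPM at 2 weeks, and 10.7, 11.9 and 17.8 CPM at 6 weeks. The log2 difference between the times was 0.86 (adjusted P = 0.0162, exact permutation test), and that between 6 weeks and controls was 0.88 (adjusted P = 0.127), or 1.24 without ctrl 4 (exact P = 0.00216 before adjustment). Of 12 refits without 1 mouse, only that without ctrl 4 gave an exact P under 0.05 at 6 weeks, and this sum had singled it out. At 2 weeks the difference from controls was 0.02 (adjusted P = 0.942), or 0.38 without ctrl 4. Of the granule and surface genes, over all 18 mice Elane had 0 counts, Mpo and Ctsg 1 each, Ly6g 2, Camp 5 and Ngp 10, while Cxcr2 had 37, Fpr1 30 and Retnlg 29. In all, 10 of the 22 genes had at most 3 counts in every mouse. Mmp8 had 0, 2 and 12 counts and Trem1 0, 2 and 9 over the control, 2-week and 6-week groups, with a count in 5 and in 4 of the 6 mice at 6 weeks. Fpr1 had 4, 8 and 18 counts, with a count in every mouse at 6 weeks. Cxcr2 had 8, 18 and 11 counts and Retnlg 8, 11 and 10 over the same groups. Mean CPM of Prtn3, Ngp and Camp was lower at 6 weeks than at 2 weeks, and that of Ltf, Mcemp1 and Fpr2 higher. Each of these genes had at most 10 counts in any mouse. Lcn2, Hdc, Csf3r and Mmp9, which other cells also express, supplied 34.5%, 21.9%, 19.7% and 8.82% of the list's counts. Of 6 neutrophil genes tested, 1 (Csf3r) was higher at 6 weeks (1.28, adjusted P = 0.0154), beside 13.5% of all genes tested.

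**Figure D4:**
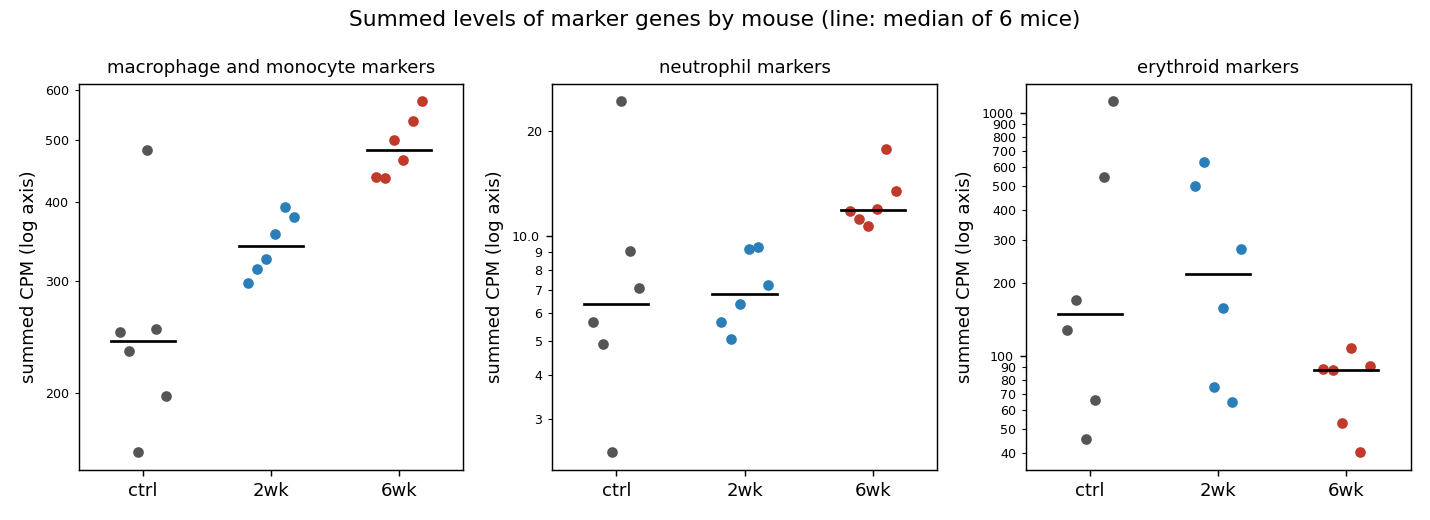
Summed CPM (log axes) of the macrophage and monocyte, neutrophil and erythroid marker lists in each mouse, with a line at the median of 6 mice. The 6-week mice are above the 2-week mice for the first and second list, and ctrl 4 holds the highest control value in both, 483 and 24.3 CPM.

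The erythroid sum, a measure of blood in the tissue, ranged from 45.8 to 1119 CPM in controls, from 64.9 to 630 CPM at 2 weeks and from 40.3 to 108 CPM at 6 weeks. Its log2 differences were 0.12 at 2 weeks (adjusted P = 0.942), -1.32 at 6 weeks (adjusted P = 0.162) and -1.44 between the times (adjusted P = 0.0812). At 6 weeks the cardiomyocyte sum was lower by -0.48 (adjusted P = 0.0195) and the endothelial sum higher by 0.30 (adjusted P = 0.0195), while at 2 weeks they differed by -0.15 (adjusted P = 0.25) and 0.09 (adjusted P = 0.179). Mouse ctrl 4 had the lowest control cardiomyocyte sum, 28253 CPM, with the other controls at 37063 CPM or more. Without it the cardiomyocyte differences were -0.57 at 6 weeks and -0.23 at 2 weeks. With each of 12 mice left out, the exact permutation P at 2 weeks ran from 0.0238 to 0.385 before adjustment, and 1 was under 0.05. The endothelial markers went both ways at 6 weeks: Pecam1 (0.90) and Cdh5 (0.53) were higher, Tek (-0.75) and Tie1 (-0.44) lower, and Kdr lay at -0.00395, which was also their median. All 6 cardiomyocyte markers were lower at 6 weeks, but 3 were without ctrl 3, ctrl 6 or 6wk 6, 2 under scaling by library size and 1 on log2(TPM + 1). By library size the 6-week cardiomyocyte sum differed by -0.22 (exact permutation P = 0.0541 before adjustment). The part of these shifts in the members' values was not tested.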

How the data were processed

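RNA of 18 mice was sequenced. Per the labels and the study's methods, the authors aligned paired reads with STAR to GRCm38, quantified transcripts with Salmon 1.0 and summed them per gene with tximport. They deposited estimated counts per gene and, from the same quantification, TPM per gene. Estimated counts were rounded here, scaled by TMM and tested with edgeR 4.0.16 (quasi-likelihood, 2-sided) in 1 fit of 3 groups without covariates. Genes at 0.23 CPM or more in at least 6 mice were kept, leaving 15054, and P values were adjusted by Benjamini-Hochberg per comparison. Each group difference was refitted with DESeq2 1.42.0, limma 3.58.1, other scalings and filters, TPM, a replicate block and each mouse left out. Marker sums were compared by exact permutation. On simulated data for 6wk versus ctrl with 15054 genes, edgeR recovered 75 of 100 genes changed 2-fold and 91 of 100 changed 4-fold, with 13 false calls. The 200 changed genes were drawn over all abundances, whereas 3760 genes were called in the data. These rates therefore do not give the power for the members, most of which were low. Of the 30072 gene IDs, 29301 matched a symbol. Coordinates are those of GENCODE on GRCm38, and promoters those of RefSeq on GRCm38.p6. Motifs were searched on both strands. All members are named. In the other lists up to 5 called genes were named by adjusted P at 6 weeks. Marker genes were named by abundance, by counts of 3 or fewer, or after their values were seen (Cd163, the endothelial genes and the neutrophil genes other than the most abundant). Members and lists were chosen with earlier results of these data known. Each library is taken as 1 mouse, so P values measure the spread between mice. The labels and the study's methods differ on the radiation source and on whether septum or ventricle was taken. A gene that the naming rule selects is not reported here.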

Additional observations from a re-analysis of the deposited data

Results flagged for a closer look

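Of 45 sets of 6 mice examined (the 10 genes and 5 marker sums in each group), 5 held a mouse far from the others by Dixon's criterion at the 95% level, where chance gives about 1 in 20. Aim2 was low in ctrl 6, at 0.173 CPM against 0.391 to 0.486 CPM in the other controls. S100a9 was high in 2wk 4, at 1.05 CPM against at most 0.367 CPM in the other 2-week mice. Acod1 was flagged in ctrl 4 for 1 count (0.0694 CPM), with none in the other controls, a pattern that meets the criterion in any gene. The same mouse had the highest neutrophil marker sum (24.3 CPM, next control 9.07 CPM) and macrophage and monocyte marker sum (483 CPM, next control 252 CPM) of its group.

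Levels differed between 2-week and 6-week mice for 3 genes by edgeR's test of these groups, which does not involve controls matched to each time. The 6-week level exceeded the 2-week level by 0.92 for Nlrp3 (adjusted P = 0.0347), by 0.67 for Casp4 (adjusted P = 0.0468) and by 1.78 for Aim2 (adjusted P = 0.0104), on the log2 scale. In these comparisons 6 of 6 mice at 6 weeks were above the 2-week median for each gene. With each of 18 mice left out in turn, the call was kept 18 times for Aim2, 11 for Nlrp3 and 6 for Casp4. Of 12 alternative fits, 12, 9 and 7 kept it for the same genes.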

How the results depend on the processing

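The count of genes higher at 6 weeks than in controls was 6 and ranged from 4 to 7 over the other fits at the same threshold, with Nlrp3, Casp1 and Casp4 called in all of them. It was 3 with a log2 fold change above 1 also required and 4 to 6 with each mouse left out. At 2 weeks the count was 1 (Acod1). It was 3 under scaling by library size (Acod1, Pycard, Nlrp3), 2 on log2(TPM + 1) with limma (Gsdmd, Pycard) and 3 on log2(TPM + 0.1) (with Acod1). Under the literal reading of the study's filter, which drops Acod1 and S100a9, it was 0 of 7. With DESeq2, run on the same filter as the main fit, it was 1 (Nlrp3). It was 1 with each mouse left out. Between the times it was 3, and 1 (Aim2) with limma and quality weights, the earlier edgeR fit, no filter, or a log2 fold change above 1 also required, and 1 to 4 with each mouse left out. Where a call was lost the cause was not tested. DESeq2 gave no adjusted P for Acod1 at 2 weeks and between the times, or for S100a9 at 2 weeks. Scaling by library size moved the median of all genes to 0.15, 0.24 and 0.11 (2 weeks, 6 weeks, between), and log2(TPM + 1) to 0.18, 0.29 and 0.11.

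Some values changed sign under other fits or with a mouse left out. Those of S100a9 were not near 0 in the main fit, at -0.30 at 2 weeks and -0.61 between the times. Casp1 at 2 weeks was 0.0649 with limma and quality weights, 0.13 by library size, 0.16 on log2(TPM + 1) and 0.32 on log2(TPM + 0.1). S100a9 at 2 weeks was 0.0355 and 0.20 on the TPM scales. Pycard between the times was 0.0846 by library size and 0.10 and 0.11 on TPM. At 6 weeks, on the smaller-pseudocount and larger-pseudocount TPM scales, Bsg was 0.0987 and 0.0986, Cd36 0.0653 and 0.0651, Sdha 0.0169 on both, and Clybl 0.0101 and 0.00989. The cardiomyocyte sum at 2 weeks was 0.00555 by library size. With each mouse left out, the 2-week values ran from -0.18 to 0.11 for Casp1, from -0.0792 to 0.29 for Nlrc4 and from -1.08 to 0.41 for S100a9. Those between the times ran from -0.12 to 0.0724 for Pycard and from -1.02 to 0.17 for S100a9. The 2-week sums ran from -0.28 to 0.38 for neutrophil and from -0.28 to 0.64 for erythroid markers.

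With the replicate number as a block, the counts were 1, 4 and 3, with Gsdmd (adjusted P = 0.0603) and Aim2 (adjusted P = 0.0551) not called at 6 weeks. The labels do not say what the numbers mark. Same-numbered mice correlated between -0.08 and 0.10 in their deviations, and 4 of 18 correlated best with their own number. Whether same-numbered mice shared a litter or a batch was not tested. Depth limits S100a8, Acod1 and S100a9 most.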
